A study of Mus musculus with 30 samples.

Results

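A set of 10 genes of prostaglandin metabolism was followed through mouse tail tendon fibroblasts treated with inhibitors of contractility. Of 35972 genes held by both RNA tables, they are the cyclooxygenases Ptgs1 and Ptgs2, the terminal synthases Ptges and Ptgis, the exporter Abcc4, the importer Slco2a1, the inactivating enzyme Hpgd, and the receptors Ptger2, Ptger4 and Ptgfr. They were picked by name, with their RNA changes under both inhibitors already known. The RNA values against DMSO were therefore part of the choice, and they are given as a description that supports nothing beyond itself. In the deposited lists of chromatin sites, 30 of 16367 entries were annotated to these genes, at 23 distinct places.

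All cells were primary wildtype fibroblasts from tail tendon, grown in medium with 10% serum and treated in medium with 0.1% serum. The RNA libraries numbered 9, with 3 from cells in the vehicle DMSO, 3 from cells in 10 µM blebbistatin and 3 from cells in 30 µM Y27632. Blebbistatin blocks the motor activity of myosin II, and Y27632 is another small molecule used to lower the contractility of cells. Another 21 libraries were of genomic DNA. Of these, 9 were assays of open chromatin (ATAC-seq) in the same 3 conditions, and 12 were from cells with or without 10 ng/mL doxycycline and with or without 10 µM blebbistatin, 3 in each group. The labels of those 12 name no transgene that doxycycline would switch on, and they give no age of the animals, no length of treatment and no statement that replicates were separate cultures or animals. The p-values below therefore measure only the spread between these libraries, which may be technical.

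Prostaglandins are lipid messengers made from arachidonic acid. Cyclooxygenases convert arachidonic acid to an unstable intermediate, terminal synthases turn it into the individual prostaglandins, and these leave the cell, act on receptors at the surface of the same or neighbouring cells, and are removed by uptake through Slco2a1 and oxidation by Hpgd. In tendon, prostaglandin E2 is released by fibroblasts under repetitive loading and in inflammation.

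The RNA libraries held between 23375386 and 37061737 reads, and their values were whole multiples of one read for 100% of entries within a tolerance of 0.1 read. The 11 fibroblast and tendon markers summed to 23113–24806 CPM in DMSO, 21417–23749 in blebbistatin and 23904–25156 in Y27632. CPM are reads scaled by library size, not by transcript length, so that levels of different genes are not comparable. Of these 11, 5 were called higher and 3 lower with blebbistatin, and 6 higher and 1 lower with Y27632. Among all genes tested, 26.1% were called higher and 26.9% lower with blebbistatin, and 18.1% and 17.8% with Y27632. The tendon genes Tnmd and Scx were detected at means of 34 and 2.4 CPM in DMSO. Of the 4 skeletal muscle markers, Ckm and Myod1 were at 0 in all 9 libraries. Myh4 had at most 1 read per library, and Acta1 had 9 to 39. The 4 epithelial markers summed to less than 1 CPM in each library. The 6 macrophage and leukocyte markers summed to 222–244 CPM in DMSO, 313–355 in blebbistatin and 319–361 in Y27632, and 5 of the 6 were called higher under each inhibitor. Most of those reads came from Lyz2. The 5 endothelial markers summed to 119–121 CPM in DMSO, 75.4–84.5 in blebbistatin and 107–114 in Y27632. That fall was Tek alone, at means of 117, 75.9 and 106 CPM. The other 4 were higher in mean under both inhibitors, with Cdh5 at 2.52, 3.11 and 3.18 CPM and Pecam1, Kdr and Emcn under 1 CPM. Of the 5, 3 were tested under each inhibitor, with 1 called lower, Tek, and 0 called higher. In bulk samples, fewer cells of a type and less RNA per cell cannot be told apart. The part of these shifts in the results below was not tested.

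The promoter windows of 3 genes are shown first, because Ptgs2 and Ptger4 had the largest increases under Y27632 and Slco2a1 fell under both inhibitors. Each runs from 250 bases before to 30 bases after the RefSeq start (GRCm38.p6, the assembly called mm10), on the coding strand, 5′ to 3′. Capitals mark matches to the motifs searched. The windows are chr1:150099781-150100060 on the plus strand for Ptgs2, chr15:5244158-5244437 on the minus strand for Ptger4 and chr9:103008237-103008516 on the plus strand for Slco2a1.
Ptgs2: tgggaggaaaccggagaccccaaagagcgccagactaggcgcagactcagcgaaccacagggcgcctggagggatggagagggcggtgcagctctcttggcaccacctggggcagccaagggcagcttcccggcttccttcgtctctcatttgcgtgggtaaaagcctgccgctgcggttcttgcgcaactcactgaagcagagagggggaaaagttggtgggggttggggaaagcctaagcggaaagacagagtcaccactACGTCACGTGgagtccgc
Ptger4: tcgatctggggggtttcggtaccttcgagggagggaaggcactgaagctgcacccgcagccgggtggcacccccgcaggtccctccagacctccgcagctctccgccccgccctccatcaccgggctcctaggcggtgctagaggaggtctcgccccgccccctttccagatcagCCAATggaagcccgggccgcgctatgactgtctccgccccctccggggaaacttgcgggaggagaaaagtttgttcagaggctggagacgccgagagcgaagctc
Slco2a1: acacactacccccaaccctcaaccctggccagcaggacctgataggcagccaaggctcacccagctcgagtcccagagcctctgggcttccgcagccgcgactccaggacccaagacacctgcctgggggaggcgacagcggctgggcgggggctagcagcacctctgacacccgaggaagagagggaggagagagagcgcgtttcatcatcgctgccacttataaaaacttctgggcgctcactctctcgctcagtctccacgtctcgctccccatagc

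The 300-base windows that RefSeq gives (250 before to 50 after the start) were searched for 6 motifs on both strands. ACGTCA, the core of a cyclic AMP response element, was present in the Ptgs2 window at positions 13 to 18 after the start, and 7.51% of 32851 promoter windows hold it. CACGTG, an E-box, lay at positions 17 to 22 of the same gene and overlaps ACGTCA by a pair of bases. It was also found in Abcc4, and 7.15% of windows hold it. CCAAT was found in Ptger2 and in Ptger4, where it lay 75 to 71 bases before the start, and 37.4% of windows hold it. GGAATG, the core of the site bound by TEAD factors, was found in Ptges, against 14.7% of windows. TGANTCA, the site of AP-1 factors, and the CArG box of serum response factor were in none of the members' windows, and 7.81% and 1.63% of windows hold them. These matches describe the letters only. A promoter entry was found for 9 members; the remaining one was Ptgis.

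Under blebbistatin, 6 of the 10 genes were called higher than DMSO, 2 were called lower and 2 were not called. A call means a Benjamini-Hochberg adjusted p under 0.05 in limma fitted across the whole table. Of all 14882 genes tested, 53.0% were called, 26.1% higher and 26.9% lower. The members' median log2 change was 0.22, against 0.00 for all genes. Under Y27632, 5 were called higher, 1 lower and 4 were not called, beside 35.9% of 14833 genes called, 18.1% higher and 17.8% lower. The median log2 change was 0.19, against 0.00 for all genes. Because the members were chosen with these changes known, nothing is read from these shares. Both comparisons use the same 3 DMSO libraries. All 10 genes passed the filter, a mean of at least 10 normalised counts over the 6 libraries of a table.

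**Figure D1:**
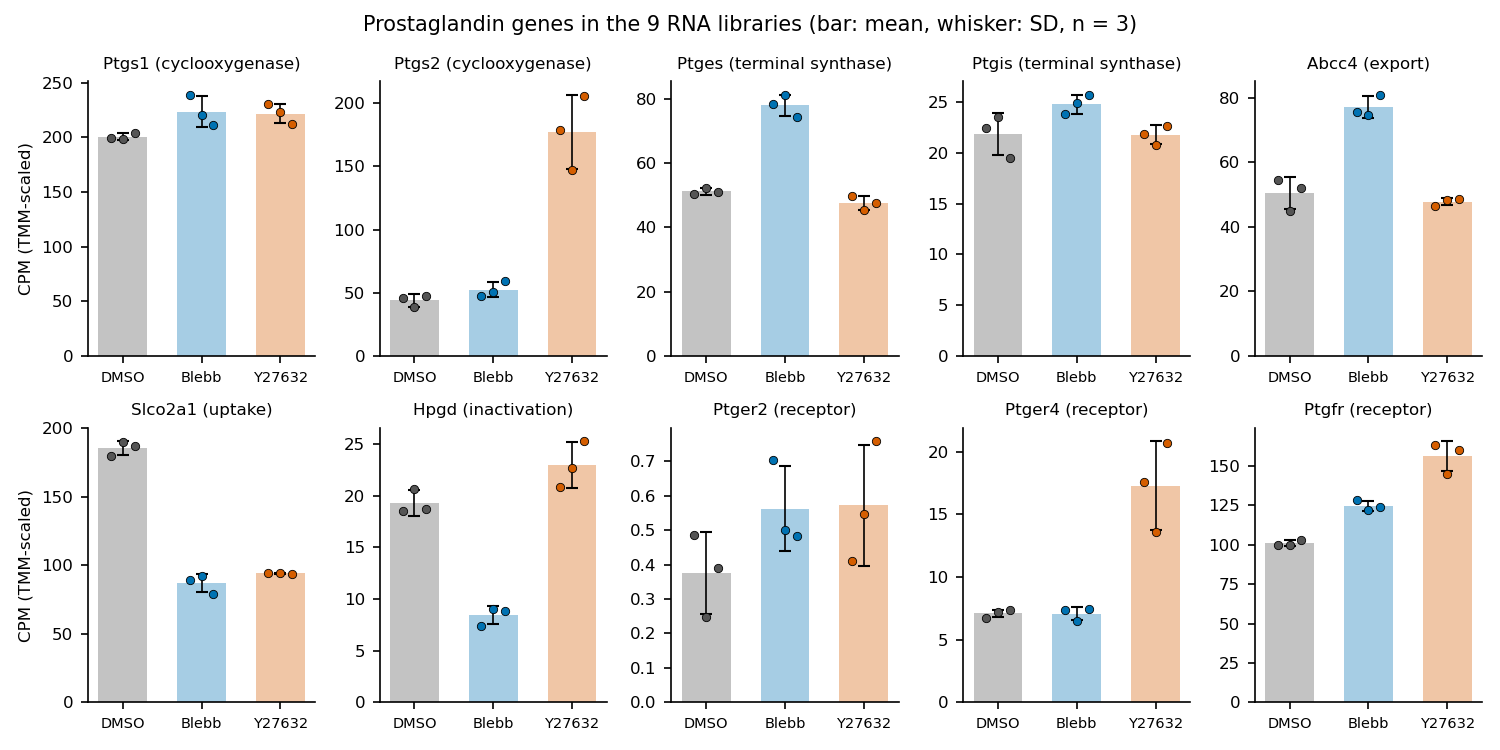
TMM-scaled CPM (y axis, from 0, own scale per gene) of the 10 prostaglandin genes in the DMSO, blebbistatin (Blebb) and Y27632 libraries; points are libraries, bars are means and whiskers are SD (n = 3 per group). Ptgs2 and Ptger4 are highest in the 3 Y27632 libraries, Hpgd is lowest in blebbistatin, and Slco2a1 is lower in all 6 inhibitor libraries than in any DMSO library.

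The cyclooxygenases came first in the pathway and moved by very different amounts. Ptgs2, the inducible cyclooxygenase, is an immediate early gene in fibroblasts. In the table with Y27632, its normalised counts were 1277, 1059 and 1304 in the DMSO libraries and 4920, 4051 and 5701 in the Y27632 libraries. Every Y27632 library lay far above every DMSO library. The mean was 4891 ± 825 (SD, n = 3) against 1213 ± 134 (SD, n = 3), a 4.01-fold level and a log2 change of 2.0 (SE 0.101). In the table with blebbistatin, the DMSO libraries held 1228, 1020 and 1254 normalised counts and the blebbistatin libraries 1271, 1324 and 1582. These groups also did not overlap, but the lowest blebbistatin library was close to the highest DMSO library. The log2 change was 0.25 (SE 0.087), and it fell to 0.16 and was not called without DMSO replicate 2, and likewise to 0.16 without blebbistatin replicate 3.

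Ptgs1, the constitutive cyclooxygenase, moved little. Its normalised counts were 5295, 5269 and 5413 in DMSO and 6354, 5800 and 5632 in blebbistatin. In the other table they were 5505, 5469 and 5625 in DMSO and 6327, 6159 and 5858 in Y27632. Both inhibitor groups lay above DMSO without overlap, by a log2 change of 0.15 (SE 0.042) with blebbistatin and 0.14 (SE 0.034) with Y27632. Over the 9 libraries, the highest and lowest log2 levels of Ptgs1 were 0.27 apart, the narrowest range of the 10 genes, while those of Ptgs2 were 2.42 apart, the widest.

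The terminal synthases among the members, Ptges and Ptgis, were both called higher with blebbistatin, Ptgis not firmly. Neither was called higher with Y27632. Ptges, which makes prostaglandin E2, held 1334, 1390 and 1353 normalised counts in DMSO and 2080, 2137 and 1981 in blebbistatin. All 3 blebbistatin libraries were well above DMSO, with means of 2066 ± 78.9 and 1359 ± 28.2 (SD, n = 3), 1.52-fold, a log2 change of 0.60 (SE 0.041). In the Y27632 table, Ptges held 1387, 1443 and 1406 in DMSO and 1366, 1250 and 1317 in Y27632. These groups did not overlap either, with Y27632 the lower, but the log2 change of -0.11 (SE 0.044) was not called. It was called without Y27632 replicate 1, at -0.14.

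Ptgis, prostacyclin synthase, held 598.7, 624.4 and 515.8 normalised counts in DMSO and 631.6, 656.1 and 685.4 in blebbistatin. The groups did not overlap, and the log2 change was 0.19 (SE 0.072). That call was the least firm of the 8 made under blebbistatin: it was lost with no filter on low values, in DESeq2, with the replicate number as a block, and without any one of DMSO replicates 1 and 3 and the 3 blebbistatin replicates. The value was 0.10 without DMSO replicate 3, the library in which Ptgis was lowest, and between 0.16 and 0.21 without the other libraries named. With Y27632 the libraries held 602.9, 572.9 and 627.9 normalised counts against 622.4, 648.2 and 536.0 in DMSO. Those groups overlapped, with a log2 change of 0.00 (95% interval -0.15 to 0.16).

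RNA of the exporter Abcc4 and RNA of the importer Slco2a1 moved in opposite directions under blebbistatin. Abcc4, an ATP-driven pump that exports prostaglandins and cyclic nucleotides, held 1447, 1195 and 1376 normalised counts in DMSO and 2010, 1966 and 2157 in blebbistatin. The blebbistatin libraries were all higher, 1.53-fold on average, a log2 change of 0.61 (SE 0.064). With Y27632 the libraries held 1278, 1334 and 1344 normalised counts, inside the range of 1240, 1430 and 1504 seen in DMSO. The log2 change was -0.07 (95% interval -0.21 to 0.06) and was not called, except without DMSO replicate 2, where it was -0.15.

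Slco2a1, the prostaglandin transporter that carries prostaglandins into cells for breakdown, fell with both inhibitors by similar amounts. Its normalised counts were 4779, 5040 and 4968 in DMSO and 2383, 2438 and 2118 in blebbistatin. In the Y27632 table they were 4968, 5232 and 5163 in DMSO and 2599, 2606 and 2592 in Y27632. No inhibitor library came near a DMSO library. The log2 change was -1.09 (SE 0.049) with blebbistatin and -0.98 (SE 0.032) with Y27632, or 2.13-fold and 1.97-fold lower. Slco2a1 is also made by endothelial cells. Of the 5 endothelial markers, given above, Tek was called lower under both inhibitors. The other 4 were higher in mean, and none of them was called. The part of endothelial RNA in the fall of Slco2a1 was not tested.

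Hpgd, the dehydrogenase that inactivates prostaglandins, went in opposite directions under the inhibitors. It held 492.5, 551.6 and 496.3 normalised counts in DMSO and 197.4, 239.3 and 235.2 in blebbistatin. The blebbistatin libraries were all lower, 2.29-fold on average, a log2 change of -1.20 (SE 0.088). In the Y27632 table it held 512.0, 572.6 and 515.7 in DMSO and 575.1, 626.9 and 699.1 in Y27632. The lowest Y27632 library lay just above the highest DMSO library. The log2 change of 0.25 (SE 0.074) was called, but not without DMSO replicate 1 (0.22), DMSO replicate 3 (0.22) or Y27632 replicate 3 (0.17).

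Among the receptors, Ptger4 followed Y27632 and not blebbistatin. Ptger4 is a receptor for prostaglandin E2 that raises cyclic AMP through the stimulatory G protein. Its normalised counts were 186.8, 198.1 and 202.9 in DMSO and 483.3, 375.5 and 573.4 in Y27632. All 3 Y27632 libraries were higher, with means of 477.4 ± 99.1 and 196.0 ± 8.27 (SD, n = 3), 2.39-fold, a log2 change of 1.26 (SE 0.122). With blebbistatin the libraries held 195.3, 171.0 and 197.5 normalised counts against 179.7, 190.8 and 195.3 in DMSO. These groups overlapped, and the log2 change was -0.01 (95% interval -0.22 to 0.20).

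Ptger2, the other cyclic AMP-raising receptor for prostaglandin E2, was too low to resolve a change of this size. It had between 6 and 20 reads per library. The normalised counts were 12.9, 6.6 and 10.3 in DMSO and 18.7, 13.2 and 12.9 in blebbistatin, and 13.4, 6.9 and 10.7 in DMSO and 11.3, 15.1 and 21.0 in Y27632. Both inhibitor groups overlapped DMSO. The log2 changes of 0.56 (95% interval -0.18 to 1.30) and 0.57 (95% interval -0.19 to 1.32) were not called.

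Ptgfr, the receptor for prostaglandin F2α, which signals through calcium, rose with both. Its normalised counts were 2650, 2668 and 2729 in DMSO and 3415, 3208 and 3308 in blebbistatin. In the Y27632 table they were 2755, 2770 and 2836 in DMSO and 4473, 3994 and 4415 in Y27632. Neither inhibitor group overlapped DMSO. The log2 change was 0.30 (SE 0.035) with blebbistatin and 0.62 (SE 0.042) with Y27632.

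The macrophage and leukocyte marker sums moved with both inhibitors and reached overlapping ranges in the 2 inhibitor groups (313–355 and 319–361 CPM). Over the same libraries, Ptgs2 was at 47.8–59.4 CPM in blebbistatin and 147–206 in Y27632, and Ptger4 at 6.49–7.42 and 13.6–20.7. The part of the marker shift in these levels was not tested.

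The 2 inhibitors were also compared directly, with all 9 libraries in one edgeR fit to the recovered reads. Ptgs2, Ptger4, Hpgd and Ptgfr were lower with blebbistatin than with Y27632, and Ptges, Abcc4 and Ptgis were higher. So 4 of 10 were called lower, 3 higher and 3 were not called, beside 52.4% of 15262 genes called, 26.5% higher and 25.8% lower. This contrast reuses the libraries that informed the choice of genes, and nothing is read from the share. The difference, blebbistatin minus Y27632, was -1.74 on the log2 scale for Ptgs2 (SE 0.109), -1.28 for Ptger4 (SE 0.125), -1.42 for Hpgd (SE 0.087) and -0.31 for Ptgfr (SE 0.042). It was 0.72 for Ptges (SE 0.043), 0.70 for Abcc4 (SE 0.059) and 0.20 for Ptgis (SE 0.066). The call for Ptgis was lost in DESeq2 (0.19), without blebbistatin replicate 3 (0.16) and without Y27632 replicate 1 (0.19) or 2 (0.16).

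In the direct comparison 3 genes did not pass. The difference was 0.02 for Ptgs1 (95% interval -0.07 to 0.11), which limits it to a small size. It was -0.10 for Slco2a1 (SE 0.045), and this small difference was called with no filter on low counts (-0.11) and without blebbistatin replicate 1 (-0.13) or 2 (-0.15). For Ptger2 it was 0.01 (95% interval -0.67 to 0.68), an interval too wide to say that the inhibitors act alike.

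**Figure D2:**
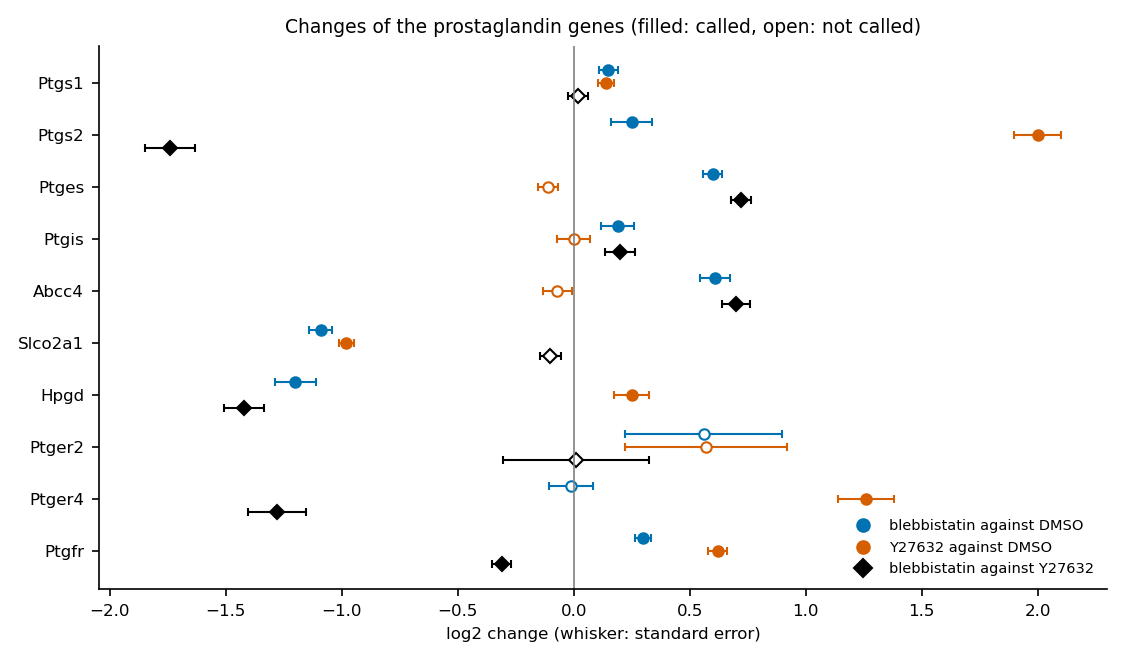
Log2 change of each gene (x axis) with its standard error for blebbistatin against DMSO, Y27632 against DMSO and blebbistatin against Y27632; filled symbols were called (adjusted p under 0.05), open symbols were not. Slco2a1 lies at -1.09 and -0.98 for the inhibitors, Ptgs2 and Ptger4 lie farthest to the right for Y27632, at 2.0 and 1.26, and Hpgd lies on opposite sides of 0.

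For the 2 genes with the widest range, the genes with the most similar profile over the 9 libraries were listed among 11464 genes with at least 100 reads on average. Those nearest Ptgs2 were Ier3 (Pearson r 0.998), Hbegf (0.997) and Errfi1 (0.995), all immediate early genes of growth factor signalling. Their mean levels in DMSO, blebbistatin and Y27632 were 35, 38.6 and 78.5 CPM for Ier3, 17, 19.2 and 59.2 for Hbegf and 39, 56.6 and 311 for Errfi1. Those nearest Hpgd were Usp4 (0.996), Bag5 (0.992) and D5Ertd579e (0.991). The 9 points form 3 groups of libraries that share their treatment, so these values mostly follow the group means and are a description.

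The genes around the members were read from 6 lists of eicosanoid and signalling genes, in which adjusted p-values come from limma over the whole table. Of 37 genes called in both inhibitor comparisons, or called with an absolute log2 change of at least 1 in one, the 12 with the largest change are described. Other genes are named after their values were seen, mainly to account for small counts. In the list for arachidonic acid release, 6 of 13 tested rose and 4 fell with blebbistatin, with a median log2 change of 0.09. With Y27632, 2 of 12 rose and 4 fell, with a median of -0.02. The list includes Anxa1, which does not itself release arachidonic acid. For these lists the shares over all genes are 26.1% higher and 26.9% lower with blebbistatin and 18.1% higher and 17.8% lower with Y27632. Mgll, the monoacylglycerol lipase that frees arachidonic acid from an endocannabinoid, fell by 1.61 on the log2 scale with blebbistatin (adjusted p = 1.08e-08) and by 1.30 with Y27632 (adjusted p = 1.3e-07). Pla2g4a, the cytosolic phospholipase that supplies cyclooxygenases, fell by 0.24 and 0.15, and Anxa1 by 0.15 and 0.26. Pla2g16 fell with Y27632, by 0.23. Pnpla8 was the remaining gene called lower with blebbistatin, at -0.09, and kept that call in only 2 of 11 alternatives. Pla2g2e, a secreted phospholipase, rose by 1.62 with blebbistatin (limma adjusted p = 6.82e-07) and was at 0.17 with Y27632 (adjusted p = 0.517). Pla2g5 and Pla2g6 were the 2 that rose with Y27632, by 0.36 and 0.15, the second called in 8 of 11 alternatives.

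Of the other prostanoid enzymes, 6 of 13 tested rose and 2 fell with blebbistatin, and none rose and 2 fell with Y27632. Over all genes, 26.1% were higher and 26.9% lower with blebbistatin, and 18.1% and 17.8% with Y27632. The count of 0 in limma was also 0 at an unadjusted p under 0.05, in edgeR and in DESeq2. The medians were 0.20 and 0.02. The 2 that fell with blebbistatin were Ptges3, a cytosolic prostaglandin E synthase, and Akr1b3, by 0.29 and 0.21, and the 2 that fell with Y27632 were Akr1b8 and Zadh2, by 0.48 and 0.15. Cbr1, a carbonyl reductase that converts prostaglandin E2 to F2α, changed by 0.58 with blebbistatin (limma adjusted p = 2.32e-07) and by 0.05 with Y27632 (adjusted p = 0.345). Without DMSO replicate 2, 4 of these enzymes were called with Y27632.

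Of the other receptors and transporters, 7 of 10 tested rose and 3 fell with blebbistatin, beside 26.1% and 26.9% of all genes. With Y27632, 4 rose and 3 fell, beside 18.1% and 17.8%. The medians were 0.27 and 0.13. Among the 7, Ptger1 was called in only 4 of 11 alternatives and Slco4a1 in 8 of 11. Tbxa2r, the thromboxane receptor, had the largest fall of these lists, with normalised counts of 762 ± 15.9 in DMSO and 188 ± 19.2 (SD, n = 3) in blebbistatin, which was -2.02 on the log2 scale (limma adjusted p = 8.71e-10). With Y27632 it went from 792 ± 15.9 to 336 ± 12.1, a log2 change of -1.23 (limma adjusted p = 6.06e-09). Ptger3, an inhibitory receptor for prostaglandin E2, fell by 1.21 with blebbistatin (limma adjusted p = 0.00555), from only 20.3 ± 4.02 normalised counts, and was at 0.15 with Y27632 (adjusted p = 0.685). Slco3a1 was the remaining gene that fell with blebbistatin, by 0.70. With Y27632 it was at -0.12, a call kept in only 3 of 11 alternatives. Slco2b1 rose by 0.63 with blebbistatin and fell by 0.90 with Y27632. The 4 that rose with Y27632 were Ptgir, the prostacyclin receptor (0.60), Slco4a1 (0.63), Ptgfrn (0.12, called in 8 of 11 alternatives) and Abcc5 (0.13), and all 4 also rose with blebbistatin.

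In the list for the lipoxygenase and leukotriene branch, 3 of 9 tested rose and none fell with blebbistatin, and 1 rose and 1 fell with Y27632. The shares of all genes called were 53.0% and 35.9%, or 26.1% higher and 26.9% lower with blebbistatin and 18.1% and 17.8% with Y27632. The count of 0 in limma stayed at 0 without adjustment of the p-values, in edgeR and in DESeq2. Aloxe3 rose by 1.74 with blebbistatin (limma adjusted p = 6.04e-06) and was at 0.30 with Y27632 (adjusted p = 0.293). Ephx2 and Lta4h were the others that rose with blebbistatin, by 0.78 and 0.38, and Lta4h also rose with Y27632, by 0.14. Ephx2 is counted in the list but is not itself a lipoxygenase or leukotriene gene. Cysltr1, a leukotriene receptor, fell by 1.48 with Y27632 (limma adjusted p = 0.00999), from 16.5 ± 6.83 to 4.92 ± 0.633 normalised counts. It was at -0.63 with blebbistatin (adjusted p = 0.212), and only 8 of 11 alternatives could test it with Y27632. With Y27632 the count of genes called in this list was 1 in edgeR and 1 without DMSO replicate 1, and 4 without Y27632 replicate 2. Alox5 and Alox5ap, which white blood cells express strongly, changed by 0.46 and 0.31 with blebbistatin and by 0.58 and 0.36 with Y27632, and none of these changes was called.

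Of the 21 factors known to act on Ptgs2 transcription or on its mRNA, 6 rose and 6 fell with blebbistatin, with a median of 0.00, beside 26.1% and 26.9% of all genes. With Y27632, 9 rose and 2 fell, with a median of 0.08, beside 18.1% and 17.8%. The immediate early factors were among the highest. Egr1 rose by 1.78 with blebbistatin (limma adjusted p = 3.38e-07) and by 2.52 with Y27632 (adjusted p = 2.99e-09). Fos, a subunit of AP-1, rose by 0.44 (limma adjusted p = 0.00786) and 1.70 (adjusted p = 7.74e-08). In the direct edgeR comparison, Egr1 was lower with blebbistatin than with Y27632 by a log2 difference of -0.71 (adjusted p = 0.00017) and Fos by -1.25 (adjusted p = 1.4e-07). Cebpb, a factor that binds the Ptgs2 promoter, was at 0.23 with blebbistatin (limma adjusted p = 0.152) and rose by 1.26 with Y27632 (adjusted p = 1.7e-07), and the direct edgeR difference was -0.99 (adjusted p = 1.52e-05). Its relative Cebpd fell by 1.26 with blebbistatin (limma adjusted p = 2.14e-05) and rose by 0.42 with Y27632 (adjusted p = 0.00145). Celf2 and Hnrnpd, which bind AU-rich mRNA, were the 2 that fell with Y27632, by 0.40 and 0.35, and both also fell with blebbistatin, by 0.86 and 0.18. Other genes of this kind in the list went both ways. Zfp36l1 rose by 1.18 with blebbistatin and 0.96 with Y27632. Zfp36 was at 0.05 with blebbistatin, not called, and rose by 0.61 with Y27632. Elavl1 fell by 0.26 with blebbistatin and was at 0.01 with Y27632, not called. Khsrp and Tia1 were not called.

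Of the 26 genes of cyclic AMP signalling, the branch below Ptger2 and Ptger4, 14 rose and 5 fell with blebbistatin, and 8 rose and 5 fell with Y27632. Among all genes tested, 26.1% rose and 26.9% fell with blebbistatin, and 18.1% and 17.8% with Y27632. The medians were 0.15 and 0.03. The least firm rises with blebbistatin were Adcy6, Adcy3 and Adcy5, called in 3, 5 and 8 of 11 alternatives. With Y27632 they were Crem, Gnas and Pde4d, called in 5, 7 and 9 of 11. Pde7b, a phosphodiesterase that degrades cyclic AMP, rose by 1.62 (limma adjusted p = 4.24e-09) and 0.82 (adjusted p = 2.63e-05). Rapgef4, a cyclic AMP-gated exchange factor, rose by 1.70 with blebbistatin (limma adjusted p = 1.41e-05) and was at 0.04 with Y27632 (adjusted p = 0.904). The 5 that fell with blebbistatin were the phosphodiesterase Pde4b, by 0.84, and the protein kinase A subunits Prkar2a, Prkar2b, Prkar1a and Prkaca, by 0.49, 0.42, 0.23 and 0.16. The 5 that fell with Y27632 were Rapgef3, Prkar2b, Adcy3, Prkar1b and Adcy7, by 0.60, 0.52, 0.23, 0.23 and 0.20.

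**Figure D3:**
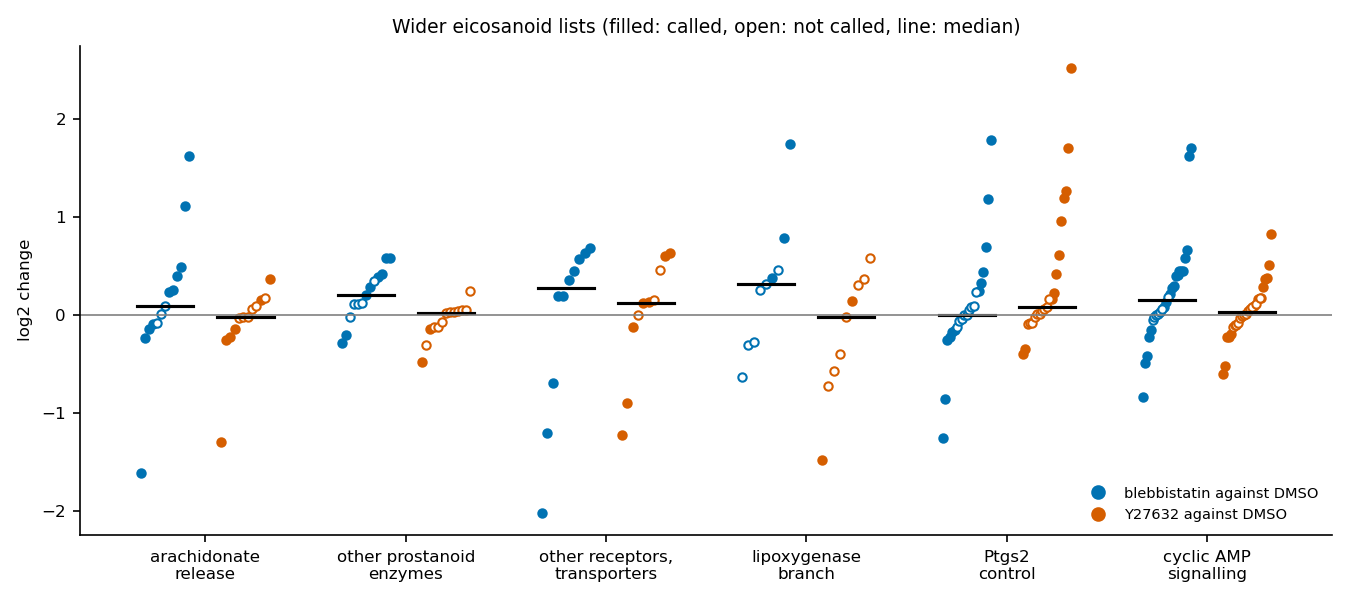
Log2 change against DMSO (y axis) of each tested gene in the 6 wider lists for blebbistatin and Y27632; each point is a gene, filled points were called, and lines are list medians. Medians lie between -0.02 and 0.31, and the points farthest from 0 include Tbxa2r at -2.02 with blebbistatin and Egr1 at 2.52 with Y27632.

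The chromatin lists give group means, a log2 fold and an FDR per site as the authors computed them, with no values per library, and they hold only sites past the authors' thresholds. A gene without a listed site therefore has no chromatin value here. The 970 ATAC-seq sites that changed with blebbistatin and the 207 that changed with Y27632 included none annotated to the 10 genes. Both lists are short beside the 35972 genes of the RNA tables. Their smallest absolute log2 folds were 1.24 and 1.11. Nothing is read from the absence of the members. In the doxycycline experiment without doxycycline, 1 of 1231 sites listed for blebbistatin was annotated to a member, and it was lower, as were 99.0% of that list. It lay upstream of Slco2a1 at chr9:103004467-103004653, 3927 bases before the start, and its log2 mean signal was 5.92 in cells with neither drug and 4.62 with blebbistatin. In the authors' deposited table its log2 fold was -1.30 with an FDR of 0.00359.

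With doxycycline, 13 of 7613 listed sites were annotated to 4 members, 12 of them higher and 1 lower, beside 95.8% higher in the whole list. When blebbistatin was added to doxycycline, 16 of 6346 listed sites were annotated to 6 members, and all 16 were lower, beside 99.8% of the list. The direction of the members' sites was thus close to that of the lists. The places were 6 for Slco2a1, 5 each for Hpgd and Ptger4, 3 each for Ptgs2 and Ptgfr and 1 for Ptgis, and none for Ptgs1, Ptges, Abcc4 or Ptger2. Of the 23 places, 7 (4 near Ptger4, 2 near Hpgd and 1 near Ptgs2) were in both lists, higher with doxycycline and lower again with blebbistatin. Over all genes, 1768 sites stood at identical positions in these lists of 7613 and 6346 sites, so sharing also occurred outside the members. The members' places were matched by an overlap of at least 1 base, a looser rule. Whether sharing was more frequent among the members was not tested. The 2 lists share their doxycycline group, so these pairs of changes are not independent. Given the shares of 95.8% and 99.8%, nearly any place in both lists would have this shape by selection.

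**Figure D4:**
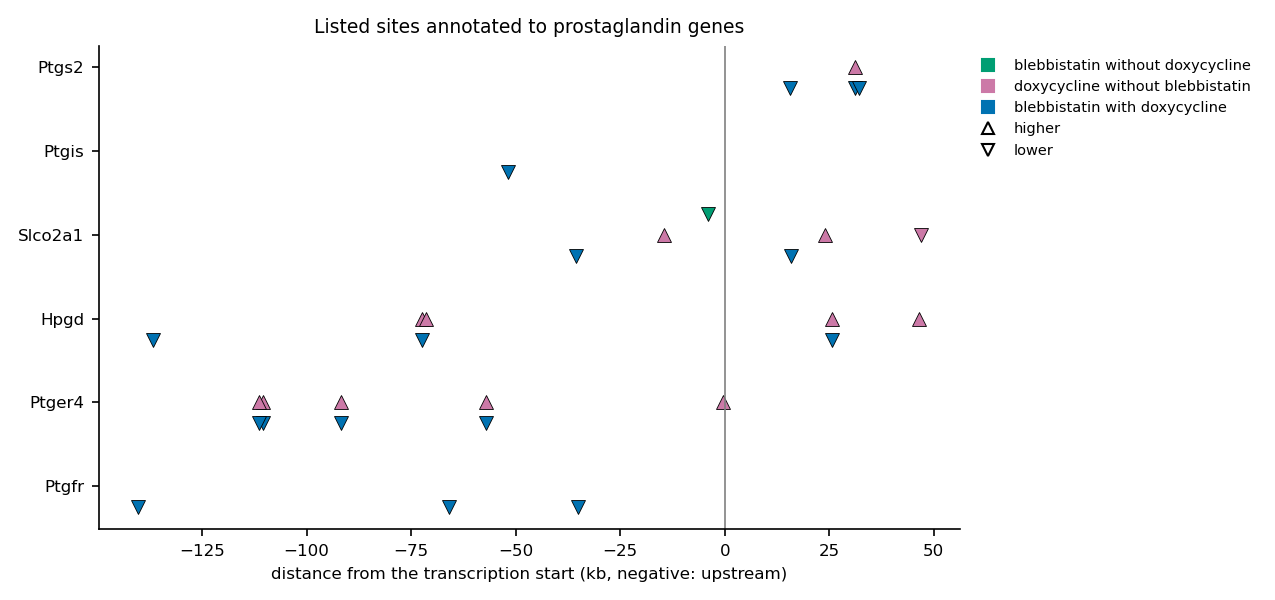
Distance from the transcription start in kb (x axis, negative is upstream) of the 30 listed sites annotated to members, by gene; colour gives the list, and triangles point up for sites higher and down for sites lower in that list. The 4 upstream Ptger4 places carry both an upward and a downward triangle, and Ptgfr and Ptgis have downward triangles only.

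The Ptger4 sites formed a distal group upstream of the gene and 1 site at its promoter. At chr15:5335826-5336189, 91821 bases before the start, the log2 mean signal was 5.97 with neither drug, 7.44 with doxycycline and 6.18 with doxycycline and blebbistatin. At chr15:5355357-5355694 it was 5.83, 7.02 and 5.83, and at chr15:5354532-5354681 it was 4.52, 5.59 and 4.27. At chr15:5301239-5301417, 57141 bases before the start, it was 4.24, 5.68 and 4.12. With both drugs the signal differed from that with neither by between -0.25 and 0.21. The median log2 folds of the whole lists were 1.15 with doxycycline and -1.13 with blebbistatin added. These are of similar size, so nothing is read from the near return. All 4 are intergenic, and the nearest gene body is Ptger4. The promoter site, chr15:5244471-5244847, lies just before the Ptger4 window shown above, 472 bases before the start, and went from 6.80 to 7.80 with doxycycline. It was not in the list for blebbistatin added to doxycycline.

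At Hpgd, the site chr8:56222036-56222443, 72312 bases upstream, had a log2 mean signal of 5.99 with neither drug, 7.16 with doxycycline and 6.05 with both. A site in the last exon of the gene, chr8:56320129-56320286, annotated to its 3′ UTR, was at 4.12, 5.30 and 4.27. At chr8:56223141-56223264 the signal went from 3.46 to 5.11 with doxycycline, and at chr8:56340915-56341227 from 5.25 to 6.33. The most distant Hpgd site, chr8:56157796-56157983, lies nearer to the body of Glra3, and was at 5.87 with doxycycline and 4.70 with both drugs.

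The Ptgs2 sites were all downstream of the gene, between 15592 and 32019 bases from its start. The site chr1:150131031-150131137 was at 4.13 with neither drug, 5.16 with doxycycline and 3.88 with both. The others, chr1:150115471-150115774 and chr1:150131989-150132110, fell from 6.38 to 5.37 and from 5.35 to 3.87 when blebbistatin was added. None of these lies within the promoter window shown above.

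Slco2a1 had sites in both directions under doxycycline. Of these, 2 rose, one upstream at chr9:102993778-102994156 (6.62 to 7.72) and one in intron 1 at chr9:103032381-103032614 (4.59 to 6.02). A site in intron 3, chr9:103055222-103055579, fell from 6.42 to 5.22, and it was the only member site lower with doxycycline. With blebbistatin added, chr9:102972676-102972988 upstream fell from 7.91 to 6.82 and chr9:103024164-103024371 in intron 1 from 5.98 to 4.73. No Slco2a1 place was in more than 1 list.

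The 3 Ptgfr sites and the Ptgis site were only in the list for blebbistatin added to doxycycline, and their signal fell. The Ptgfr sites were upstream, at chr3:151872503-151872766 (6.14 to 4.80), chr3:151903313-151903535 (5.86 to 4.85) and chr3:151977762-151977989 (6.50 to 5.31). The last of these lies nearer to the body of Gipc2 than to Ptgfr. The site annotated to Ptgis, chr2:167292421-167292553, went from 5.59 to 4.36 and lies 5957 bases from B4galt5 and 40337 from the body of Ptgis, so its link to Ptgis rests on the annotation by nearest start.

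**Figure D5:**
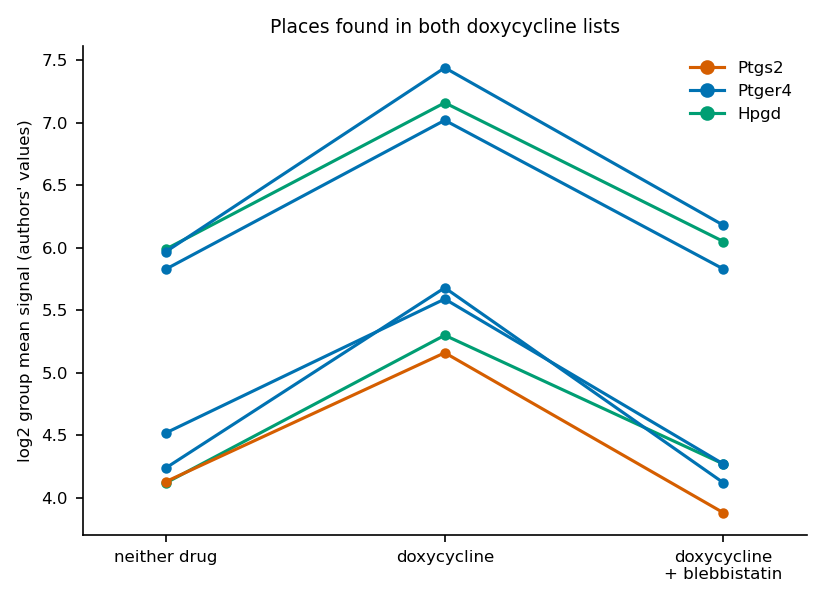
Authors' log2 group mean signal (y axis) in cells with neither drug, with doxycycline and with doxycycline and blebbistatin at the 7 places that both doxycycline lists share; each line is a place, coloured by gene. Every line peaks with doxycycline, from 5.16 at the Ptgs2 place to 7.44 at a Ptger4 place. This shape follows from taking places in both lists, whose sites were 95.8% higher with doxycycline and 99.8% lower with blebbistatin added.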

How the data were processed

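RNA was measured in 9 libraries and genomic DNA in 21. The authors deposited normalised counts (signal values, which were whole reads divided by one factor per library) in 2 tables, each with a log2 fold change and p-values, and 5 lists of sites with log2 group means, a log2 fold, a p-value and an FDR as deposited by the authors. The submitters' processing notes name HISAT2, Picard, featureCounts, DESeq2, Bowtie2, SAMtools, MACS2, DiffBind, HOMER and mm10; how they were set is not given in the sources used here. Protocols in the labels name ATAC-seq and no other chromatin assay.

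Groups came from sample titles. Each inhibitor was compared with DMSO in limma 3.58.1 (R 4.3.3, trend, log2 of value plus 1, mean of at least 10), adjusted over all genes tested. Such changes understate those of low genes. The 2 tables were scaled separately (the DMSO values of one were 1.0392 times those of the other), so whole reads were recovered and the inhibitors were compared in edgeR 4.0.16 (TMM, quasi-likelihood). DESeq2 1.42.0 was an alternative. Recovered DMSO reads were the same in both tables for all 35972 genes. Each pair of replicates differed by more than counting error (chi-square per degree of freedom at least 2.78). The scripts were tested on simulated data. 0 sample columns lacked a matching label.

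The members and all gene lists were chosen with earlier results of these data known. Genes of the wider lists were named when called in both inhibitor comparisons, or called with an absolute log2 change of at least 1 in one, taking the 12 largest; the choice of the largest was made after the values were seen. For the site list of doxycycline without blebbistatin, a column headed as the blebbistatin group was read as the group with neither drug. The labels assign that list to the group with neither drug. At 13 sites also listed for blebbistatin without doxycycline, the column differed from the neither-drug mean by -0.13 ± 0.0044 (SD) and from the blebbistatin mean by 1.12 ± 0.184.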

Additional observations from a re-analysis of the deposited data

How the results depend on the processing

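Counts of all genes called stayed within 1.5 times the reported ones under every alternative run: 7894 genes with blebbistatin, 5328 with Y27632 and 7990 between the inhibitors became 7604, 4633 and 7759 with a replicate block. Same-numbered libraries had correlations of -0.217 to 0.068 in their deviations from group means, and differently numbered ones -0.221 to 0.187. Deviations of 3 libraries in a group sum to 0, so these values cannot settle whether replicate numbers pair libraries. The replicate block removed the call of Ptgis with blebbistatin and no other member's call. With Y27632, the number of members called lower ranged from 1 to 2 when single libraries were left out, with 2 without DMSO replicate 2 and without Y27632 replicate 1. Reversals of sign fell on values that were not called. Leaving out single libraries, Ptger4 with blebbistatin ranged from -0.04 to 0.06, Ptgis with Y27632 from -0.08 to 0.06, and Rapgef4, Pla2g2e and Ptger3 with Y27632 from -0.10 to 0.20, -0.01 to 0.31 and -0.02 to 0.30; between the inhibitors Ptgs1 ranged from -0.04 to 0.05 and Ptger2 from -0.22 to 0.24. In edgeR and DESeq2, Ptgis with Y27632 was at -0.01 and 0.00, and Ptger2 between the inhibitors was at -0.01 both in DESeq2 and with no filter. The cause of these shifts was not tested. Of the wider-list genes called, 53 of 62 with blebbistatin and 35 of 41 with Y27632 were called in every alternative that tested them, and all kept their sign. The member sites stayed within 1.5 times their counts at an FDR under 0.01 and within 100000 bases of the start; a limit of 1 on the absolute log2 fold could remove none, since the deposited lists hold no smaller fold. Depth limited Ptger2, at 6 to 20 reads per library.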
